A study of Rattus norvegicus with 3 samples.

Results

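Ribosomal protein genes were described across 3 microarrays of rat cerebellar cortex, with the proteins of the cytosolic ribosome compared with those of the mitochondrial ribosome. Members were the genes on the array whose accession mapped to a rat RefSeq symbol beginning with Rpl, Rps, Mrpl or Mrps and a number, or to Rpsa, Rplp0, Rplp1 or Rplp2, without the Rps6k kinases. They were 164 of 38973 genes, of which 96 belonged to the cytosolic and 68 to the mitochondrial set. Total RNA was taken from male Wistar rats, 9 weeks old, at 2 days after surgery. In the MCAO group, the right middle cerebral artery was occluded transiently with an intraluminal suture and reperfused, and cerebellar cortex was collected on the left (contralateral to the infarct) and on the right (ipsilateral). The control group had a sham operation, and its left cerebellar cortex was collected. Tissue of 4 rats was pooled for each array, both sides came from the same MCAO rats, and each group had 1 array, so no replicate shows the spread between animals and no test was made. The 3 arrays lay on 1 slide and were read in 1 colour, with Cy3-labelled RNA. As markers of the labelled tissue, 10 of 10 cerebellar granule neuron genes and 7 of 7 Purkinje cell genes on the array were well above background on every array, and so were 4 of 8 forebrain neuron genes.

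Ribosomes translate mRNA into protein, and each is built of a small and a large subunit that hold rRNA and many proteins. The cytosolic ribosome makes nearly all proteins of the cell, and neurons also place it in dendrites, where proteins are made near synapses. Most of its protein genes give TOP mRNAs, which begin with a C and a run of pyrimidines and whose translation is controlled through mTOR and Larp1. The mitochondrial ribosome is built from a different set of nuclear genes and makes a few membrane subunits of the respiratory chain and ATP synthase.

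The start of these genes is shown first because the pyrimidine tract is the sequence feature that the cytosolic genes are known to share. In the RefSeq promoter table of the GRCr8 assembly, 75 of 96 cytosolic and 53 of 68 mitochondrial members had an entry. A tract was counted where a C followed by at least 4 pyrimidines (C or T) began within 5 bases of the annotated start, on the sense strand. It was present in 41 of 75 cytosolic promoters (54.7%), among them 38 of 60 core subunits (63.3%), and in 13 of 53 mitochondrial promoters (24.5%). Among all 33469 promoters of the table, 17.0% had it, and among the 8776 promoters of named genes detected on these arrays, 16.9%. Capitals mark the tract in 5 cytosolic genes, each given from 60 bases before to 25 bases after the start. Rps23 and Rpl4 were among the cytosolic genes with the larger contralateral log2 ratios given further on, and Rps24, Rps27 and Rplp1 among those with the smaller ones. They lie at chr2:23814457-23814541 on the + strand for Rps23, chr8:73566417-73566501 on the + strand for Rpl4, chr16:96457-96541 on the + strand for Rps24, chr2:177964582-177964666 on the - strand for Rps27 and chr8:71290848-71290932 on the - strand for Rplp1.
Rps23: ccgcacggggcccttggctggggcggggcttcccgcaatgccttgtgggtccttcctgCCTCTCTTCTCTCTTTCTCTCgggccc
Rpl4: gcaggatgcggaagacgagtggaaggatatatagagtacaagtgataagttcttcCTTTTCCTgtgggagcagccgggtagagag
Rps24: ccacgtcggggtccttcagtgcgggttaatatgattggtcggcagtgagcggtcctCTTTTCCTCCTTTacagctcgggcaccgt
Rps27: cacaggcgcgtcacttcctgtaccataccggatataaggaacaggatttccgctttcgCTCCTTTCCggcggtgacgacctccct
Rplp1: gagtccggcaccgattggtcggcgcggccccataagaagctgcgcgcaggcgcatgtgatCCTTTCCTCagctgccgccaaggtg
Counted from its first C inside the 5-base limit, the tract was 21 bases long in Rps23, 8 in Rpl4, 13 in Rps24, 9 in Rps27 and 9 in Rplp1. Pyrimidines directly before that C, 6 in Rpl4, 4 in Rps24 and 1 in Rplp1, are in lower case and not counted. These genes were chosen to show the tract, so they do not tell how often genes with larger or smaller ratios carry it. No tract was found in Rps19l3, Rpl24, Rpl3 and Rps6, with larger contralateral ratios, or in Rps27l and Rplp2, with smaller ones.

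Other motifs were searched on both strands over the whole promoter entry and counted separately, so that matches of different motifs may overlap. The core of the ETS family (CCGGAA or TTCCGG) was found in 45.3% of cytosolic and 52.8% of mitochondrial promoters, against 5004 of 33469 promoters of the table and 26.5% of those of detected named genes. A YY1-like motif (AAGATGG or CCATCTT) was found in 14.7% and 26.4%, against 7.01% of the table and 8.25% of detected named genes. An NRF1-like motif (GCGCANGCG or CGCNTGCGC) was found in 9 of 75 cytosolic and 10 of 53 mitochondrial promoters, against 5.8% and 12.4%. A GC box (GGGCGG or CCGCCC) was present in 52.0% and 52.8%, against 33.1% and 59.7%, and a TATA box (TATAAA or TTTATA) in 14.7% and 13.2%, against 14.2% and 7.74%. Among the 60 cytosolic core subunits alone, the ETS core was found in 53.3%, the GC box in 56.7%, the YY1-like motif in 9 promoters, the NRF1-like motif in 8 and the TATA box in 6, and all 53 mitochondrial promoters were of core subunits. The order of the sets for the ETS core, GC box and TATA box thus turned when paralogs and copies were left out. The starts of 3 mitochondrial genes are shown with the ETS core in capitals, for Mrpl10 with a large ratio to the control array and for Mrpl53 and Mrps23 with ratios below 0. They lie on the + strand at chr10:82522350-82522494 for Mrpl10, chr4:117172923-117173067 for Mrpl53 and chr10:73496118-73496262 for Mrps23.
Mrpl10: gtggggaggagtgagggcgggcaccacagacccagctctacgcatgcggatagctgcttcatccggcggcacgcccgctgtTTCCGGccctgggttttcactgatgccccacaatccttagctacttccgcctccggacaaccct
Mrpl53: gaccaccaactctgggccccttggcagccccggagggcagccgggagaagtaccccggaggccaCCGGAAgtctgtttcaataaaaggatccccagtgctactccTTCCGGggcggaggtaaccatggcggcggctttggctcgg
Mrps23: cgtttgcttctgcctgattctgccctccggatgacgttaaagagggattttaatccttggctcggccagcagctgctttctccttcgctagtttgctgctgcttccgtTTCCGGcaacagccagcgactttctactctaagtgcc
A match is a description of these letters and not a binding site.

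**Figure D1:**
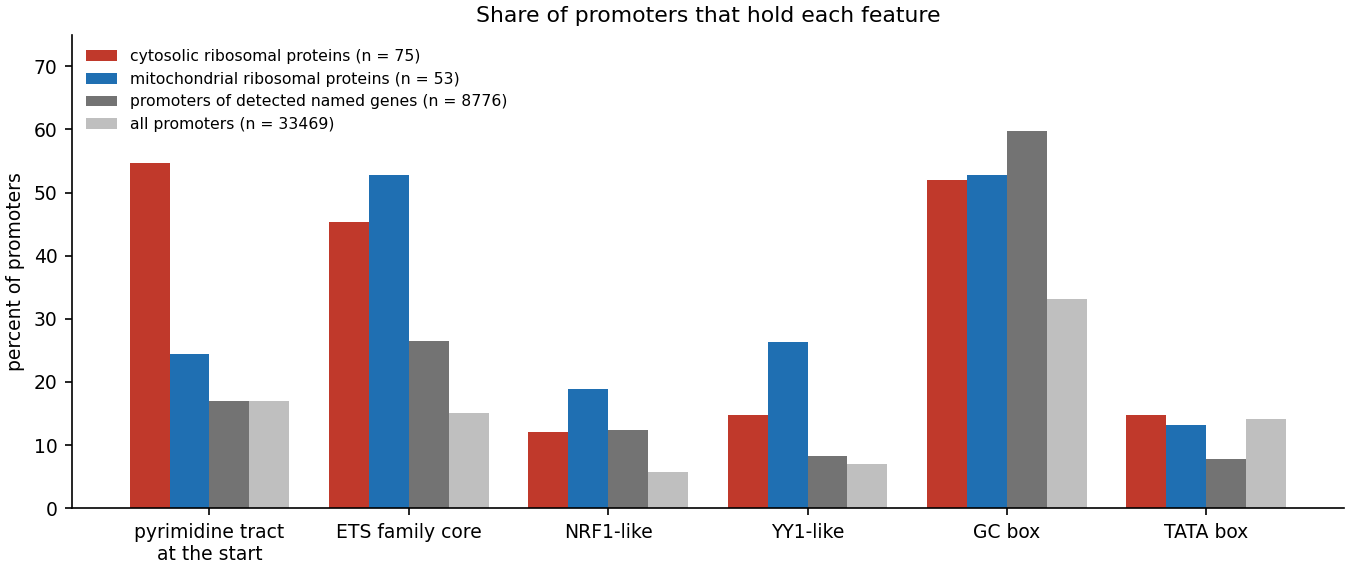
The bars give the percent of promoters that hold each sequence feature, for 75 cytosolic and 53 mitochondrial ribosomal protein genes, 8776 detected named genes and all 33469 promoters of the table. The pyrimidine tract at the start was found in 54.7% of the cytosolic and 24.5% of the mitochondrial promoters, and the ETS core in 45.3% and 52.8%, or in 53.3% of the cytosolic promoters when only core subunits are taken.

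The members were measured by 299 probes, of which 218 were printed in 1 spot, 9 in 2 spots and 72 in 10 spots. Their 956 spots gave 1 value per gene and array after 40 outlier spots had been left out. A gene was called detected when each of its probes was well above background on all 3 arrays, which held for 156 of the 164 members and 22085 of the 38973 genes. In the cytosolic set 90 of 96 genes were detected, including 75 of 76 core subunits, 14 of 17 paralogs or copies and 1 of 3 genes with a pseudogene symbol. The 6 others were Rpl27l2, Rps12l4, Rps4x-ps1, Rps7-ps20, Rpl3l and Rpl28. Rpl28 had a dim probe with log2 ratios to the control array of -0.75 contralaterally and -0.78 ipsilaterally, and a brighter probe with 9 spots at 0.049 and 0.070. In the mitochondrial set 66 of 68 genes were detected, and Mrpl30 and Mrpl15 were left out because of a dim probe each. Medians and counts refer to detected genes, and summed signals to all genes of a set or list on the array. The rat annotation holds 1258 symbols that the naming rule takes, 904 of them with a pseudogene symbol, so RNA from near-identical copies may hybridise to a probe of the parent gene.

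Signals were log2 intensities, brought to a common 75th percentile over the arrays. Before this scaling it was 2103 on the contralateral, 1614 on the ipsilateral and 2336 on the control array. A log2 ratio therefore compares a gene with the bulk of the same array. Its scanner error, calculated by the software from the error of each spot, was 0.20 for most members. The SD of a ratio between spots of 1 probe was lower, with a median of 0.034, 0.036 and 0.033 over 81 member probes in the contralateral to control, ipsilateral to control and contralateral to ipsilateral comparisons. Neither covers the variation between rats or hybridisations. Since tissue was measured in bulk, fewer cells of a type and less RNA per cell cannot be told apart.

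The contralateral to control comparison asks how the cerebellar cortex opposite to the infarct, the side of crossed cerebellar diaschisis, differed from that of sham-operated rats. The median log2 ratio of the 90 cytosolic genes was 0.12 after scaling (quartiles 0.073 and 0.17), against 0.012 for all detected genes (quartiles -0.14 and 0.14), and it turned to -0.027 without scaling. Of these genes, 83 of 90 were above 0 (92.2%), beside 52.4% of all genes. Only Rps4y2 lay beyond 0.5 in either direction, beside 10.6% of all genes, and no cytosolic gene lay beyond 1, beside 2.26%. A ratio larger than its scanner error was found for 15 of 90, a smaller share than the 32.7% of all genes. The median was lower with spike-in scaling (0.040, or 0.023 without the dimmest probe), after quantile normalization (0.035) and after cyclic loess (0.039), and fewer genes were above 0, as given below.

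For the ipsilateral cerebellar cortex, which shares the control array with the contralateral comparison, the cytosolic median was 0.18 (quartiles 0.13 and 0.23), against 0.030 for all genes (quartiles -0.12 and 0.19). It turned to -0.35 without scaling, to -0.065 when arrays were scaled to spike-in probes, and to -0.0098 when the dimmest of these probes was left out. Above 0 were 87 of 90 genes (96.7%), beside 55.9% of all genes. Beyond 0.5 were 3 genes, Rpl36a, Rpl39l1 and Rpl39l5, beside 14.3% of all genes, and beyond 1 was Rpl39l1, beside 3.89%. The ratio exceeded its scanner error for 38 of 90, beside 36.6% of all genes.

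The mitochondrial genes had a median of 0.018 in the contralateral comparison, with 38 of 66 above 0 (57.6%, near the 52.4% of all genes) and none beyond 0.5 (10.6% of all genes), and this median was negative under 6 of the other scalings: none, spike-in with and without the dimmest probe, quantile, cyclic loess and the deposited values. In the ipsilateral comparison their median was 0.031, with 45 of 66 above 0 (68.2%, beside 55.9% of all genes), and it was negative when arrays were not scaled, were scaled to spike-in probes (with or without the dimmest) or were taken as deposited. Mrps15 was the only one beyond 0.5, beside 14.3% of all genes, and none was beyond 1 in either comparison, beside 2.26% and 3.89%. A ratio larger than its scanner error was found for 4 of 66 genes in each comparison, a smaller share than the 32.7% and 36.6% of all genes. The mitochondrial medians lay close to those of all genes, 0.012 and 0.030.

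**Figure D2:**
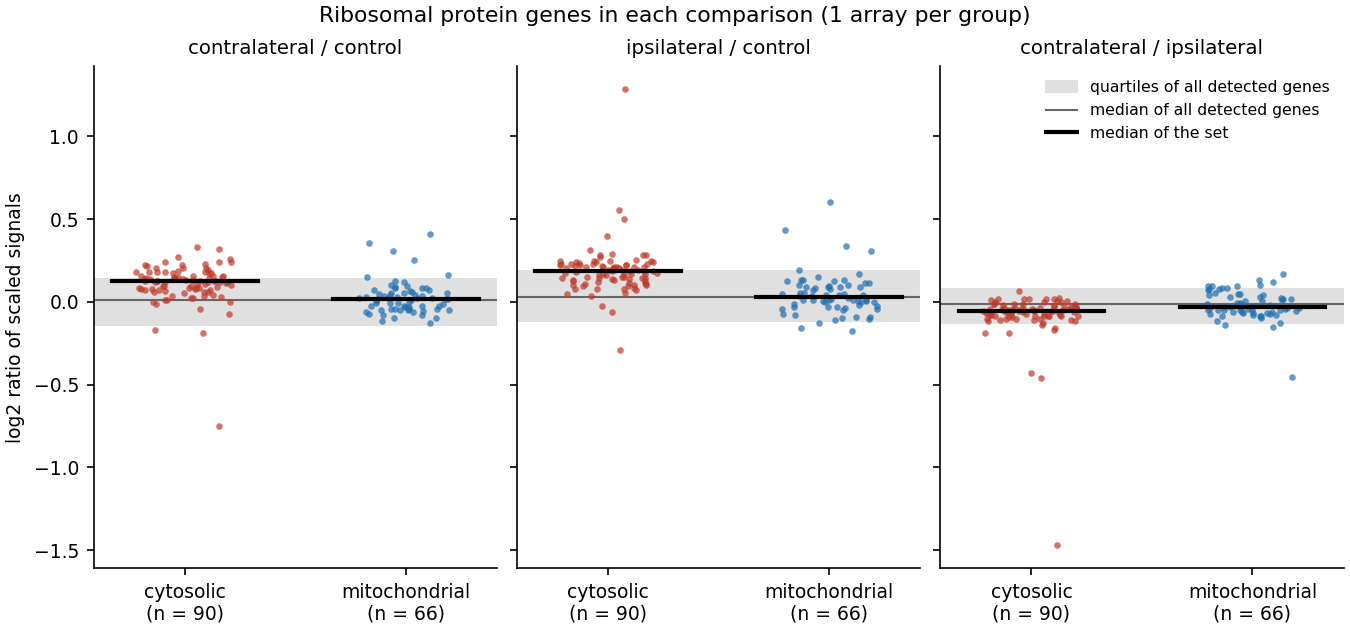
Each point is the log2 ratio of a detected gene in 1 of 3 comparisons, after scaling to a common 75th percentile; black bars are set medians, the grey line and band the median and quartiles of all 22085 detected genes. The cytosolic medians are 0.12, 0.18 and -0.055 and the mitochondrial ones 0.018, 0.031 and -0.029; without scaling the cytosolic ones turn to -0.027, -0.35 and 0.33.

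The difference between the set medians does not depend on a constant scaling of an array. The cytosolic median was 0.11 above the mitochondrial one in the contralateral comparison and 0.15 above it in the ipsilateral comparison. These differences were positive under all 15 settings tried. Settings that only shift an array by a constant could not change them, so the count of 15 includes outcomes fixed in advance. The differences were lowest after quantile normalization, at 0.038 and 0.042. Cyclic loess, which removes a dependence of the ratio on signal level, gave 0.041 and 0.050. With the brightest probe of each gene they were 0.12 and 0.19. The summed signal of the cytosolic genes was 3059509 on the contralateral, 3197790 on the ipsilateral and 2791731 on the control array, and that of the mitochondrial genes 267521, 275769 and 256810. The control array had the lowest sum of each set after scaling.

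Scalings moved the arrays as a whole, so the sets are best read relative to all genes. Without scaling, the median of all genes was -0.14 contralaterally and -0.50 ipsilaterally to the control array. With spike-in scaling, chosen after seeing the data, it was -0.072 and -0.22, and without the dimmest spike-in probe -0.089 and -0.16. Relative to the median of all genes, the cytosolic set was 0.11 higher contralaterally and 0.15 higher ipsilaterally under each scaling that shifts an array by a constant. After quantile normalization the relative values were 0.018 and 0.051, after cyclic loess 0.022 and 0.058, and with normexp background correction 0.069 and 0.033. The mitochondrial set lay at 0.0054 and 0.0010 relative to all genes under constant shifts, at -0.020 and 0.0090 after cyclic loess, and at -0.021 and -0.10 with normexp.

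The split between higher and lower genes moved with the scaling as well. Shares of all genes under the same settings are given beside the counts. In the contralateral comparison, cytosolic genes above 0 numbered 29 of 90 without scaling, 61 with spike-in scaling, 55 when its dimmest probe was left out, 62 after quantile normalization and 66 after cyclic loess, beside 23.2%, 34.8%, 31.4%, 53.7% and 53.8% of all genes. In the ipsilateral comparison they numbered 2, 11, 39, 70 and 79 of 90 in this order, beside 9.10%, 19.6%, 24.2%, 49.8% and 51.8% of all genes. The cytosolic share was thus below that of all genes ipsilaterally without scaling (2.22%) and with spike-in scaling (12.2%). Mitochondrial genes above 0 in the contralateral comparison numbered 5 of 66 without scaling, 13 with spike-in scaling, 8 when its dimmest probe was left out, 22 with the deposited values and 47 with a common median, beside 23.2%, 34.8%, 31.4%, 43.1% and 58.7% of all genes. The first 4 of these mitochondrial counts were smaller shares than those of all genes, such as 7.58% without scaling. Ipsilaterally they numbered 1, 4, 4, 24 and 47, beside 9.10%, 19.6%, 24.2%, 44.5% and 59.1%, and 36 after quantile normalization and after cyclic loess. Relative to all genes, the cytosolic median was above 0 in both comparisons with the control array under every setting, and the mitochondrial median was not. Settings that shift an array by a constant could not change these relative medians.

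**Figure D3:**
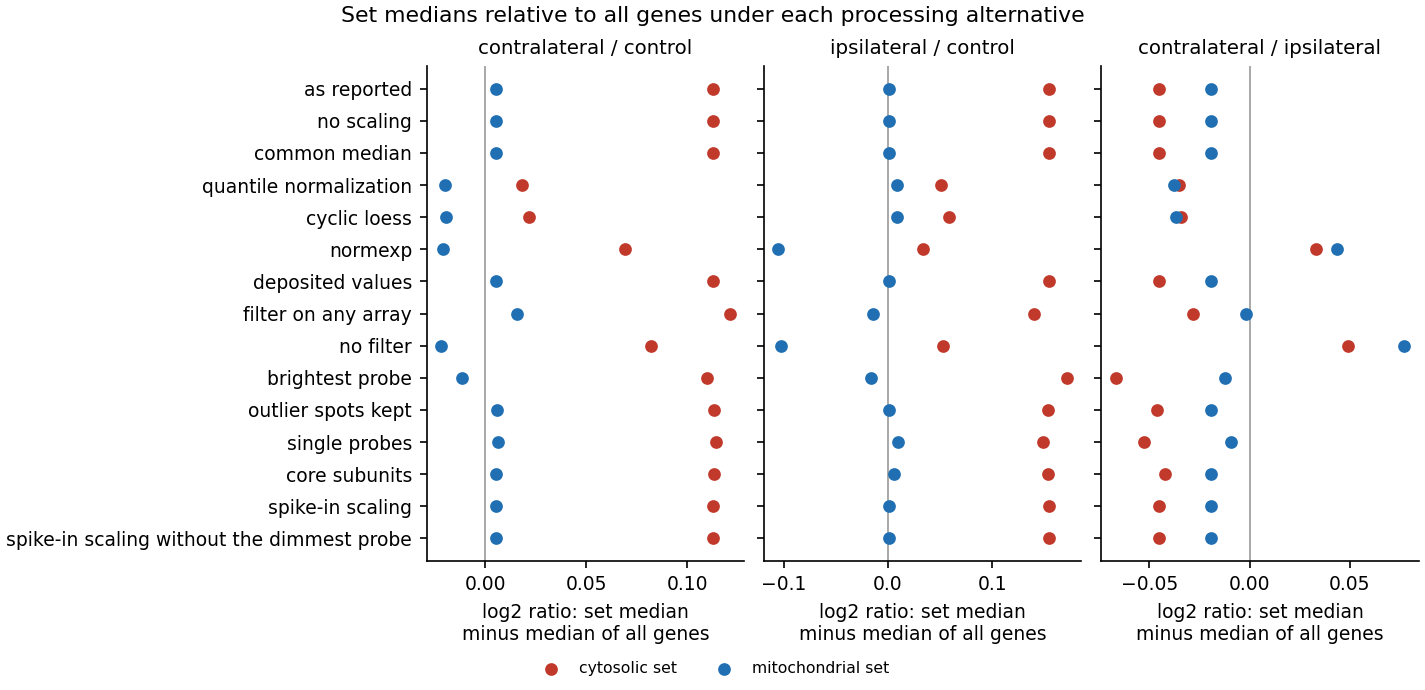
Points give the set median minus the median of all genes on the log2 scale, for each processing alternative and comparison. Relative to all genes the cytosolic set is above 0 to the control array under every setting, from 0.018 to 0.12 contralaterally and from 0.033 to 0.17 ipsilaterally, and between the sides it turns from -0.045 to 0.033 with normexp and 0.049 with no filter. Settings that shift an array by a constant give the same points by construction.

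Log2 ratios to the control array also changed with signal level. Of the cytosolic genes, 56 had a mean log2 signal of 14 to 16, with medians of 0.14 and 0.19 in the contralateral and ipsilateral comparisons, and 55 and 56 of them were above 0. Other genes at this level, 462 in number, had medians of 0.069 and 0.11, with 333 and 379 above 0. The 8 cytosolic genes with a signal of 16 to 18 had medians of 0.12 and 0.21, and 60 other genes at that level 0.13 and 0.23. At 12 to 14, the medians were 0.068 and 0.11 for 18 cytosolic genes, -0.022 and 0.037 for 19 mitochondrial genes and 0.054 and 0.058 for 1683 other genes. At 10 to 12, 23 mitochondrial genes had medians of 0.023 and 0.043, and 3531 other genes 0.038 and 0.016. The cytosolic medians were above those of other genes at 14 to 16 and not at 16 to 18.

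Spike-in probes, which match no rat RNA, moved in the same comparisons. Averaged over the 8 spike-in probes well above background, with 269 spots, the log2 ratio to the control array was 0.084 contralaterally and 0.25 ipsilaterally. The dimmest of them, at a log2 signal of 4.74, was at -0.036 and 0.64, and the average of the 7 others was 0.10 and 0.19. The 3 of them with a log2 signal above 14 lay between 0.093 and 0.16 contralaterally and between 0.16 and 0.29 ipsilaterally. At a signal of 14.69, the probe values were 0.093 and 0.16, below the cytosolic medians of 0.14 and 0.19 at 14 to 16. At 15.81 they were 0.14 and 0.20, level with or above these medians, and at 17.67 they were 0.16 and 0.29, above the cytosolic medians of 0.12 and 0.21 at 16 to 18. The part of signal level and of the spike-in shift in the result was not tested.

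**Figure D4:**
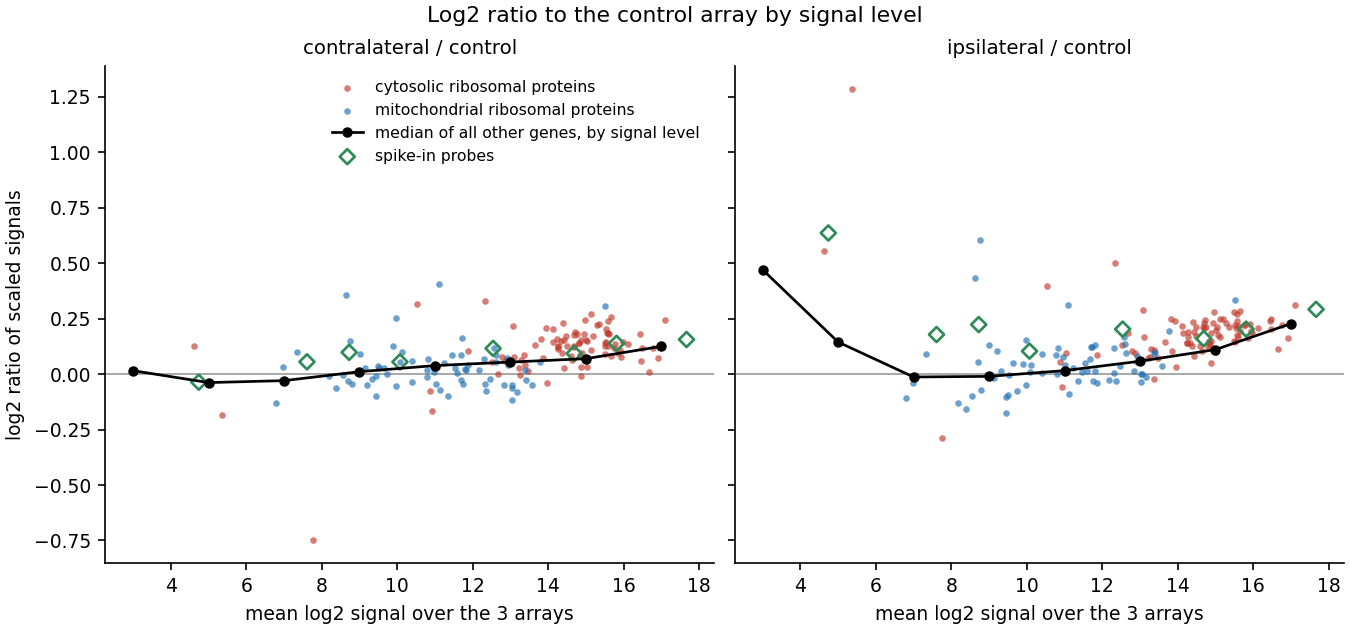
Log2 ratio to the control array against the mean log2 signal over the 3 arrays, after scaling to a common 75th percentile, for detected cytosolic (red) and mitochondrial (blue) genes, spike-in probes (diamonds) and the median of all other genes in steps of 2 (black line). The line rises from 0.069 and 0.11 at 14 to 16 to 0.13 and 0.23 at 16 to 18, and the 3 brightest spike-in probes lie at 0.093 to 0.16 and 0.16 to 0.29.

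Within the cytosolic set, small and large subunits had similar medians, which shift with the scaling as that of the whole set does. The 35 detected small-subunit genes had medians of 0.11 contralaterally and 0.18 ipsilaterally, and the 55 large-subunit genes 0.13 and 0.19. The 75 core subunits gave 0.13 and 0.18. The 15 paralogs, copies and pseudogene symbols had medians of 0.063 and 0.21 and a wider range, from -0.75 to 0.32 contralaterally and from -0.29 to 1.29 ipsilaterally. Single genes follow, with signals and ratios after scaling.

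In the small subunit, Rps6, the protein that S6 kinases phosphorylate, had a log2 signal of 14.48 on the contralateral, 14.48 on the ipsilateral and 14.25 on the control array. The log2 ratio was 0.23 on either side, with an SD between its 10 spots of 0.045 contralaterally and 0.043 ipsilaterally. No spot of either MCAO array was as low as the highest spot of the control array, as the plot of single spots shows. After cyclic loess the ratios were 0.16 and 0.13. Rps3, which lies at the mRNA entry of the small subunit, had signals of 14.98, 15.03 and 14.80 in the same order, with ratios of 0.18 and 0.23. Rpsa, also known as a laminin receptor, was at 13.10, 13.19 and 13.02, with ratios of 0.079 and 0.17. The control array was the lowest of the 3 for each of these genes.

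Rps23, a protein of the decoding centre, had a signal of 15.69 contralaterally, 15.66 ipsilaterally and 15.44 in the control group. Its ratios were 0.24 and 0.22, from 1 spot, and 0.14 and 0.080 after cyclic loess. Rps24, which takes part in the maturation of small-subunit rRNA, was at 13.41, 13.35 and 13.37. Its ratios were 0.040 and -0.023, so that the ipsilateral array was below the control array, within the scanner error. Rps7, also of the small subunit and chosen after its values were seen, had ratios of 0.13 and 0.28.

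**Figure D5:**
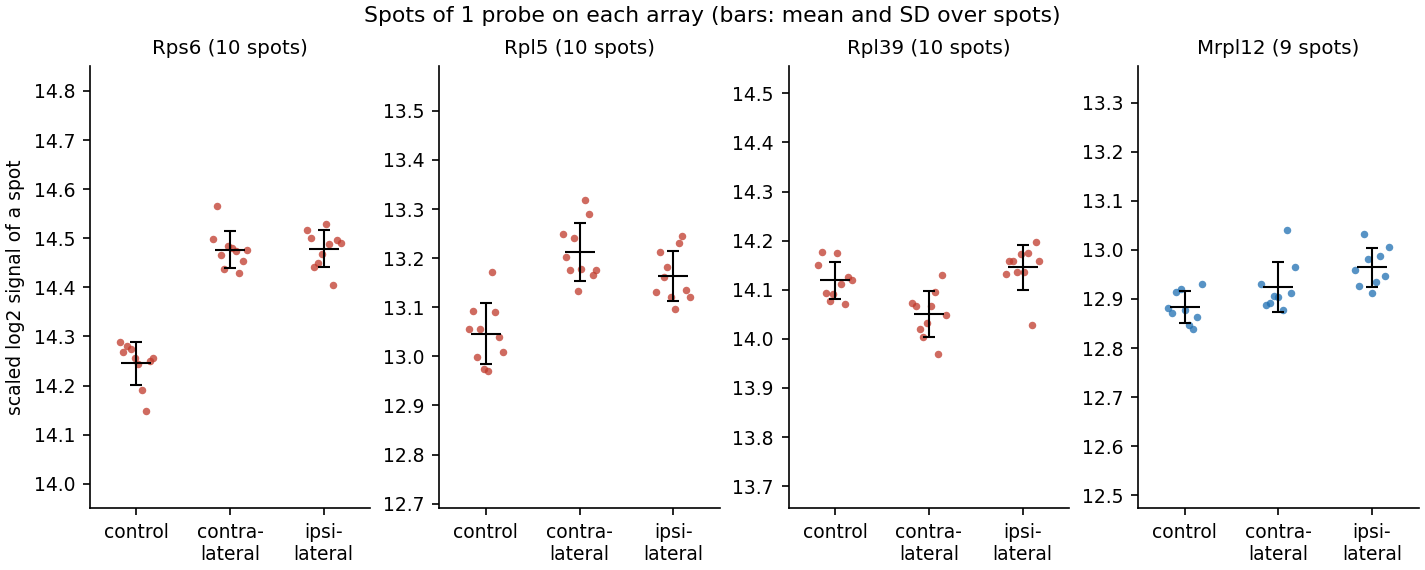
Scaled log2 signal of each spot of 1 probe on each array for Rps6, Rpl5, Rpl39 (10 spots each) and Mrpl12 (9 spots), with bars for the mean and SD over spots. After this scaling the MCAO arrays lie above the control array for Rps6, whose gene means are 14.48, 14.48 and 14.25, while without scaling the order of arrays can differ.

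In the large subunit, Rpl3, a protein near the peptidyl transferase centre, had a signal of 15.43 contralaterally, 15.42 ipsilaterally and 15.21 in the control group. Its ratios were 0.23 and 0.21. Rpl4, which reaches into the exit tunnel, had signals of 15.23, 15.21 and 14.96 in this order, and its ratios of 0.27 and 0.25 were among the 3 largest contralateral ones of the cytosolic set together with Rpl36a and Rps19l3. Rpl3 and Rpl4 were each read from 1 spot, and their log2 ratios between the sides were 0.015 and 0.019. Rpl7 had ratios of 0.24 and 0.28 over 6 probes. Rpl24, which forms a bridge to the small subunit and was chosen after its values were seen, had ratios of 0.24 and 0.31 from 1 spot. Rpl10, which joins the large subunit late in its assembly, had ratios of 0.13 and 0.17.

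Rpl36a, near the tRNA exit site, had the largest contralateral ratio of the cytosolic set, 0.33, and an ipsilateral ratio of 0.50, which turned to -0.033 without scaling. Its 4 probes did not move alike. The 3 bright probes had ratios of 0.077 to 0.13 contralaterally and 0.17 to 0.23 ipsilaterally, and a dim probe had ratios of 1.02 and 1.38. The gene's place at the top of the set thus rested on the dim probe. Over the 68 detected members with several probes, the range between probes of 1 gene had a median of 0.045 contralaterally and 0.080 ipsilaterally. All probes of a gene had the same sign in 60 of 68 genes contralaterally and in 62 ipsilaterally.

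The proteins Rpl5 and Rpl11 form a particle with the smallest rRNA of the large subunit and, outside the ribosome, bind Mdm2. The signal of Rpl5 was 14.38 on either side of the MCAO group and 14.24 in the control group. Its ratios were 0.15 and 0.14 over 11 spots, and 0.074 and 0.042 after cyclic loess. Rpl11 had ratios of 0.13 and 0.14. The MCAO arrays differed from each other by 0.0066 for Rpl5, less than its scanner error of 0.20.

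The stalk, which recruits elongation factors, is made of Rplp0 and pairs of Rplp1 and Rplp2. The signal of Rplp0 was 16.42 contralaterally, 16.61 ipsilaterally and 16.36 in the control group. The contralateral ratio was 0.059 and the ipsilateral ratio 0.25, and the log2 ratio between the sides was -0.19, from 1 spot. Rplp1 had ratios of 0.0096 and 0.11, and Rplp2 0.031 and 0.049. After cyclic loess Rplp0 was at -0.056 and 0.083 and Rplp1 at -0.11 and -0.061. The 3 stalk genes had contralateral ratios below the cytosolic median of 0.12.

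Paralogs were compared with their usual partners. Rpl22 had ratios of 0.057 contralaterally and 0.096 ipsilaterally, and Rpl22l1 -0.074 and 0.054. Rps27 was at 0.033 and 0.10. Rps27l, a p53-responsive paralog, had a signal of 10.84 contralaterally, 10.95 ipsilaterally and 11.00 in the control group, and ratios of -0.17 and -0.059 over 7 spots, with an SD between spots of 0.065 and 0.062. Its contralateral signal was below that of the control array by more than this SD, but by less than the scanner error of 0.20. Rps4x had ratios of 0.052 and 0.13. Rps4y2 was at 7.35, 7.81 and 8.10, with ratios of -0.75 and -0.29 and a scanner error of 0.21, from 1 spot. These were the lowest ratios of the detected cytosolic genes in either comparison. No probe mapped to the symbols Rpl7l1, Rpl10l, Rpl36al, Rpl39l or Mrpl11, and Rpl3l was not detected. A gene with the symbol Rpl36al1 was detected, with ratios of 0.063 and 0.11 over 10 spots. Whether it is the usual partner of Rpl36a was not checked.

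Rpl39, a small protein of the exit tunnel, had a signal of 13.92 contralaterally, 13.99 ipsilaterally and 13.96 in the control group. Its ratios of -0.040 and 0.033 over 30 spots of 4 probes were among the low ones of the core subunits. Rpl39l1, a copy of it, had the largest ipsilateral ratio of the set, at dim signals of 4.81, 6.28 and 4.99. The ratios were -0.19 and 1.29 with scanner errors of 0.25 and 0.27, from 1 spot. Rpl39l5, also dim and read from 1 spot, had ratios of 0.13 and 0.56 with an error of 0.30. All genes with a log2 signal of 4 to 6 had medians of -0.038 contralaterally and 0.14 ipsilaterally. A spike-in probe at 4.74 was at -0.036 and 0.64, so its ipsilateral ratio was larger than that of Rpl39l5. Rps19l3, a copy of the small-subunit gene Rps19, had ratios of 0.32 and 0.40. The values of Rpl39l1, Rpl39l5 and Rps19l3 rested on 1 spot each, while Rpl17l5, chosen after its values were seen, had ratios of 0.21 and 0.29 over 10 spots.

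In the mitochondrial ribosome, the 26 small-subunit genes had medians of 0.027 contralaterally and 0.014 ipsilaterally and the 40 detected large-subunit genes 0.0074 and 0.040, values that turn negative without scaling as those of all genes do. Mrpl10, the counterpart of Rplp0, had a signal of 15.60 contralaterally, 15.63 ipsilaterally and 15.30 in the control group. Its ratios of 0.31 and 0.34 came from 1 spot, and were 0.21 and 0.20 after cyclic loess. Mrpl12, which binds Mrpl10 in the stalk, was at 12.92, 12.96 and 12.88 in the same order, with ratios of 0.041 and 0.082 over 9 spots and -0.0078 and 0.024 after cyclic loess. Mrpl10 thus differed from the control array by more than its scanner error of 0.20 after the 75th percentile scaling, and Mrpl12 did not. Without scaling Mrpl10 was within this error, at 0.16 and -0.20, and ipsilaterally also after cyclic loess, after quantile normalization at 0.18 and with spike-in scaling at 0.086.

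Mrpl50 had a signal of 11.27 contralaterally, 11.17 ipsilaterally and 10.87 in the control group, and the largest contralateral ratio of the mitochondrial set, 0.41, beside 0.31 ipsilaterally. It was read from 1 spot. Mrps15 was at 8.65, 9.11 and 8.50, with ratios of 0.15 and 0.61, so that only the ipsilateral array stood apart. Mrps35 had ratios of 0.36 and 0.44, but its brighter probe gave 0.014 and 0.018 and its dim probe 0.70 and 0.85. Of the landmarks, Mrps12, at the decoding centre, had ratios of 0.023 and 0.015, and Mrps5 -0.0071 and -0.13.

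Ratios below 0 in the mitochondrial set were small. Mrpl47 had the lowest contralateral ratio, -0.13, followed by Mrpl53 at -0.12 and Mrpl36 at -0.099. Ipsilaterally these genes were at -0.11, -0.036 and -0.032. Mrps23 had the lowest ipsilateral ratio, -0.18, and was at -0.0074 contralaterally, and Mrps18b was at -0.16 ipsilaterally and -0.060 contralaterally. None of these exceeded the scanner error of its ratio, which was 0.20 to 0.23.

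The comparison of the contralateral with the ipsilateral side sets the left and right cerebellar cortex of the same rats against each other. The cytosolic median was -0.055, the mitochondrial -0.029 and that of all genes -0.0099, and the set medians turned to 0.33 and 0.35 without scaling to 0.11 and 0.14 with spike-in scaling, and to 0.038 and 0.064 when its dimmest probe was left out. The median of all genes was 0.37, 0.16 and 0.083 under these settings, and relative to it the cytosolic set stayed at -0.045 and the mitochondrial set at -0.019. Above 0 were 10 of 90 cytosolic genes (11.1%) and 25 of 66 mitochondrial genes (37.9%), beside 47.0% of all genes. Without scaling these counts were 87 and 65 (90.1% of all genes), with spike-in scaling 84 and 65 (78.8%), or 72 and 60 without its dimmest probe (70.3%). Under these settings each set had a larger share above 0 than all genes. Cytosolic genes above 0 were 29 after quantile normalization, beside 56.1% of all genes, and 21 after cyclic loess, beside 52.9%. Beyond 0.5 in either direction was Rpl39l1 alone, at -1.47, beside 8.04% of all genes, and it was the only member beyond 1, beside 1.76%. The cytosolic minus mitochondrial difference was -0.026, and 0.0024 after quantile normalization and after cyclic loess. Ratios between the sides also changed with signal level. At a log2 signal of 14 to 16, 8 of 56 cytosolic genes were above 0 (median -0.047), beside 112 of 462 other genes (-0.043). At 16 to 18, 0 of 8 were above 0 (-0.086), beside 6 of 60 (-0.10). At 12 to 14, 1 of 18 cytosolic and 2 of 19 mitochondrial genes were above 0 (-0.053 each), beside 780 of 1683 (-0.0054). The part of signal level in this comparison was not tested.

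Between the sides, 3 of 90 cytosolic genes and 1 of 66 mitochondrial genes had a ratio larger than its scanner error, smaller shares than the 22.7% of all genes. They were Rpl39l1, Rpl39l5 at -0.43, Rps4y2 at -0.46 and Mrps15 at -0.46, each read from 1 spot. The cytosolic genes highest on the contralateral side were Rps24 at 0.063, Rps23 at 0.024 and Rpl4 at 0.019. In the mitochondrial set Mrps23 was highest, at 0.17, followed by Mrps21l at 0.13 and Mrps5 at 0.12, and Mrpl16 and Mrpl20 followed Mrps15 at the lower end, at -0.15 and -0.14. The 3 spike-in probes with a signal above 14 lay between -0.14 and -0.064, and the dimmest one well above background, at 4.74, was at -0.67. Rpl39l1 and Rpl39l5 had mean signals of 5.36 and 4.63, and all genes at 4 to 6 had a median of -0.17. The value of Rpl39l5 was thus smaller than that of the dim spike-in probe. Rps4y2 and Mrps15 had mean signals of 7.76 and 8.76, and the medians of all genes were -0.010 at 6 to 8 and 0.022 at 8 to 10.

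Promoter features were then set beside the ratios. The 40 detected cytosolic genes with a pyrimidine tract had medians of 0.12 contralaterally and 0.18 ipsilaterally, and the 31 without it 0.14 and 0.18. Those with an ETS core (34 genes) were at 0.097 and 0.17, and those without (37 genes) at 0.14 and 0.19. Those with a TATA box (11 genes) were at 0.034 and 0.094, and those without (60 genes) at 0.13 and 0.18. Among the cytosolic TATA box genes were the paralogs or copies Rps4y2, Rps27l, Rpl23al8, Rpl27al1 and Rpl17l5. In the mitochondrial set, the medians were 0.017 and 0.026 for 27 genes with an ETS core, and 0.010 and 0.013 for 25 without. Its TATA box genes lay the other way round from the cytosolic ones, at 0.040 and 0.055 (7 genes) against -0.0071 and 0.013 without (45 genes). The tract thus divided the cytosolic genes into groups with nearly the same median. All these medians shift with the scaling as the set medians do.

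Ribosomal proteins and their partners under other names gave further values, which are to be read against medians of 0.012 and 0.030 and shares above 0 of 52.4% and 55.9% for all genes. The 8 ribosomal proteins with other symbols had medians of 0.075 contralaterally and 0.081 ipsilaterally, with 5 of 8 above 0 each time. Among them, the cytosolic Fau was at 0.17 and 0.19 and Rack1 at 0.15 and 0.14. The mitochondrial Dap3 was at -0.046 and -0.030 and Ptcd3 at -0.066 and -0.13, while Gadd45gip1 was at 0.14 and 0.12, Aurkaip1 at 0.080 and 0.044 and Chchd1 at -0.10 and -0.014. The 34 cytosolic translation factors on the array had medians of 0.051 and 0.075, with 27 and 28 above 0. Eef1b2, a subunit of the exchange factor of elongation factor Eef1a1, was at 0.21 and 0.24, Eef1a1 at 0.097 and 0.085, and its neuronal form Eef1a2 at 0.0041 and 0.0085.

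For ribosome biogenesis, 34 of 35 genes were detected, with medians of 0.037 and 0.040 and 22 and 23 above 0, where all genes had 52.4% and 55.9%. The nucleolar protein Npm1 was at 0.16 on either side. Among 25 of 27 detected genes of mitochondrial translation, the medians were 0.070 and 0.0074, with 18 and 14 above 0. The 16 genes of signalling to translation had medians of 0.00096 and 0.042, with 8 above 0 in each comparison, so that signalling genes and, ipsilaterally, those of mitochondrial translation were near the share of all genes. Eif4ebp1, a repressor of translation that mTOR inactivates, was the only one of them beyond 0.5, at 0.50 and 0.61. Mtor itself was at -0.056 and -0.17.

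As other large complexes, 76 detected subunits of the respiratory chain and ATP synthase had medians of 0.018 and 0.046, with 49 and 59 above 0, beside 52.4% and 55.9% of all genes. At a log2 signal of 14 to 16, where the 56 cytosolic ribosomal protein genes had medians of 0.14 and 0.19, 34 of these subunits had medians of 0.015 and 0.074. The 37 detected proteasome subunits had medians of 0.042 and 0.075, with 23 and 28 above 0, beside the same shares of all genes. Neither set had a gene beyond 1.

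Markers of other tissue moved in the same comparisons. Of 8 choroid plexus markers 7 were detected, and their median log2 ratio was -0.55 contralaterally and 0.66 ipsilaterally. The summed signal of all 8 was 10826 contralaterally, 77035 ipsilaterally and 34151 in the control group, and Ttr, the brightest, had ratios of -1.73 and 1.19. All 7 leptomeningeal markers were detected, with medians of -0.85 and -0.37 and sums of 6895, 9523 and 12446, Col1a2 being brightest. Of 8 forebrain neuron markers 4 were detected, with medians of 0.89 and -0.076, and the sums over all 8 were 2304, 1415 and 1367. Their brightest gene, Neurod6, was at -0.054 and 0.056, Cck at 3.56 and 0.28 and Nrgn at 1.83 and -0.21. Of 4 blood markers on the array, Hba-a1 alone was detected, at -0.88 and -1.03. The sums over all 4 were 1125, 1022 and 2101. The part of these tissue markers in the ribosomal protein result was not tested.

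The cell types of the cerebellar cortex and its glia gave list medians that likewise follow the scaling. Granule neuron markers had medians of -0.081 and -0.079 over 10 genes, with sums of 118437 contralaterally, 121663 ipsilaterally and 125265 in the control group, and Cbln1 as the brightest gene. Purkinje cell markers were at 0.14 and 0.090 over 7 genes, with sums of 215829, 214768 and 195771 and Itpr1 as the brightest. Bergmann glia and astrocyte markers were at -0.034 and -0.065 over 6 genes, with sums of 73132, 73853 and 81285. Aqp4, the brightest of them on the control array, was at -0.55 and -0.45, and Gfap at -0.73 and -0.66. S100b, brighter than Aqp4 on both MCAO arrays, was at 0.17 and 0.12, and Gdf10 at 0.39 and 0.27. Oligodendrocyte markers were at -0.13 and -0.12 over 6 genes, with sums of 44047, 45670 and 46851. The 6 microglia markers had medians of 0.098 and 0.081 and sums of 4482, 5615 and 3728. Above 0 were 3 of them contralaterally and 4 ipsilaterally, beside 52.4% and 55.9% of all genes. Their brightest gene, Cx3cr1, was at 0.78 and 1.27, while Aif1 was at -0.29 and -0.097 and P2ry12 at -0.014 and -0.040. Their part in the result was not tested either.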

How the data were processed

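Cy3-labelled RNA of 3 pools was hybridised to 1-colour Agilent arrays. The authors deposited the intensity of each spot as read by Agilent Feature Extraction 12.1.0.3 (protocol GE1_1200_Jun14), background-subtracted and without scaling between arrays, and a table of the same intensity values multiplied by 1 factor per array (1.12, 1.45 and 1.04). For each of 58717 spots that are not controls, the log2 processed signal was shifted to a common 75th percentile, 759 outlier spots were left out, and spots of a probe and then probes of a gene were averaged. Genes were grouped by RefSeq symbol (GRCr8; 17622 of 39957 accessions matched) or else by accession. Well above background were 42470 spots contralaterally, 43028 ipsilaterally and 43283 in the control group, and no spot was saturated. With 1 array per group there was no test. Python 3.11.15 (numpy 2.4.6, pandas 2.3.3, matplotlib 3.10.9) and R 4.3.3 with limma 3.58.1 did the calculations, and medians were tested on simulated data.

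Members and lists were chosen with earlier results of these data known. Genes named were the 3 largest and 3 smallest ratios of each set and comparison, paralog pairs, landmark subunits, and genes whose probes differed by over 1 in a ratio. Members, list genes and markers named beside these were chosen after their values were seen. Lists covered ribosomal proteins under other names, translation factors, ribosome biogenesis, mitochondrial translation, signalling, respiratory chain, proteasome and cell type markers. Alternatives were no scaling, a common median, quantile normalization, cyclic loess, the deposited values, normexp with an offset of 50, 2 other filters, the brightest probe, single probes, outlier spots kept and core subunits alone. Normexp was run on median signals, since the files hold no mean signal. Scaling to spike-in probes, with and without the dimmest of them, was added after seeing the data.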

Additional observations from a re-analysis of the deposited data

How the results depend on the processing

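The cytosolic minus mitochondrial difference was positive under all 15 settings in both comparisons with the control array, from 0.038 to 0.12 contralaterally and from 0.042 to 0.19 ipsilaterally. No scaling, a common median, the deposited values and both spike-in scalings could not change this difference, since they shift an array by a constant. Of 126 set medians and differences, 31 moved by more than the SD between spots. Of 144 counts, 30 changed by more than 1.5 times or changed from or to 0. Of 1440 values of named genes, 125 moved by more than their scanner error. Values are given in the order contralateral to control, ipsilateral to control and contralateral to ipsilateral. Of 40 named genes, 17, 27 and 25 changed sign without scaling, and among ratios beyond 0.5 only that of Rpl36a did, to -0.033 ipsilaterally. Without scaling, the cytosolic median was -0.027, -0.35 and 0.33 and the mitochondrial median -0.13, -0.50 and 0.35. Above 0 were then 29, 2 and 87 cytosolic and 5, 1 and 65 mitochondrial genes, beside 23.2%, 9.10% and 90.1% of all genes, and 0 cytosolic genes were beyond 1 ipsilaterally (5.76% of all genes). With spike-in scaling, chosen after seeing the data, the cytosolic median was 0.040, -0.065 and 0.11 and the mitochondrial -0.067, -0.22 and 0.14. Above 0 were 11 cytosolic genes ipsilaterally and 84 between the sides, and 13, 4 and 65 mitochondrial genes, beside 34.8%, 19.6% and 78.8% of all genes. When the dimmest spike-in probe was left out, also chosen after seeing the data, the cytosolic median was 0.023, -0.0098 and 0.038 and the mitochondrial -0.084, -0.16 and 0.064, with 55, 39 and 72 cytosolic and 8, 4 and 60 mitochondrial genes above 0, beside 31.4%, 24.2% and 70.3% of all genes. These shifts follow from the scaling, which adds a constant to every ratio of a comparison. After quantile normalization, the cytosolic medians were 0.035, 0.050 and -0.016, the set differences to the control array 0.038 and 0.042, and 29 cytosolic genes were above 0 between the sides (56.1% of all genes). After cyclic loess, the cytosolic medians to the control array were 0.039 and 0.067, the differences 0.041 and 0.050, and 21 cytosolic genes were above 0 between the sides (52.9% of all genes). With the deposited values, the cytosolic medians to the control array were 0.082 and 0.13, the mitochondrial ones -0.026 and -0.026, with 22 and 24 mitochondrial genes above 0 (43.1% and 44.5% of all genes), and 18 cytosolic genes were above 0 between the sides (51.2%). With a common median 18 and with normexp 17 cytosolic genes were above 0 between the sides (52.0% and 30.1% of all genes), and with normexp 0 were beyond 1 ipsilaterally and 0 between the sides (0.580% and 0.0770%). With genes well above background on any array, 2 cytosolic genes were beyond 1 between the sides (9.85% of all genes), and with no filter 1 contralaterally (11.2%) and 3 between the sides (15.2%), since dim genes enter. The cause of the smaller cytosolic values after quantile normalization and cyclic loess was not tested.

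The number of arrays limits the precision of every value. With 1 pool of 4 rats per group, variation between rats, dissections and hybridisations cannot be told apart from an effect of MCAO, and both comparisons with the control group rest on the same control array. Most cytosolic ratios were smaller than the scanner error of 0.20, and signals near background give wide errors, as for Rpl39l1 and Rpl39l5. Probe sequences were not available, so the match of a probe to copies of its gene could not be checked. mRNA levels were measured, and protein and translation were not.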
